A study of Mus musculus with 4 samples.

Results

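The Ccl and Cxcl chemokines were described in dissociated leg muscle of fetal mice at E18.5, as unique molecular identifiers (UMIs, the molecules counted) in droplet single-cell RNA-seq. Members were all gene symbols formed of *Ccl* or *Cxcl*, a number and at most 1 further letter, which gave 36 symbols (24 *Ccl* and 12 *Cxcl*) on 42 of 32285 rows of the feature table. The study set fetuses that lacked *SYISL*, a long noncoding RNA whose gene lies in sense orientation over an intron of *Synpo2*, beside wild-type fetuses of 1 litter from heterozygous parents, with 2 libraries for each genotype. The genotypes are called KO and WT, the libraries WT1, WT2, KO1 and KO2, and values given in fours stand in that order. No treatment was given, muscle was taken from each fetus separately, and whether a library held 1 fetus or more, and of which sex, was not stated outright. Because the libraries of a genotype came from the same litter, p-values measure only the spread between these libraries. Every level is the UMIs of a gene summed over the cells of a class in a library and scaled to a total of 1000000 UMIs (CPM), and errors are the SD over 4 libraries unless stated. Each transcript was counted at its 3′ end, so UMIs were not divided by transcript length.

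Chemokines are small secreted proteins that steer the migration of cells carrying matching G protein-coupled receptors. In muscle, resident macrophages and fibro-adipogenic progenitors (FAPs, the interstitial mesenchymal cells) are known sources of inducible chemokines that draw neutrophils and monocytes, while *Cxcl12* is made constitutively by mesenchymal cells and acts on *Cxcr4*-bearing progenitors. Many inducible members carry NF-κB sites upstream of their transcription start, and their transcripts are known to rise quickly in tissue that is cut and digested.

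To show the sequences beside the levels, the 250 bases upstream of the RefSeq transcription start were taken for 4 members that recur in the results: *Cxcl1* and *Cxcl2*, which attract neutrophils, *Cxcl10*, an interferon-inducible ligand, and *Cxcl12*, a constitutive ligand. Capitals mark matches to a κB motif (GGGANNNNCC, either strand) or to an interferon-response-like motif (GAAANNGAAA, either strand), and the build is GRCm38.p6. The windows are chr5:90890995-90891244 on the plus strand (*Cxcl1*), chr5:90903649-90903898 on the plus strand (*Cxcl2*), chr5:92348890-92349139 on the minus strand (*Cxcl10*) and chr6:117168285-117168534 on the plus strand (*Cxcl12*).
Cxcl1: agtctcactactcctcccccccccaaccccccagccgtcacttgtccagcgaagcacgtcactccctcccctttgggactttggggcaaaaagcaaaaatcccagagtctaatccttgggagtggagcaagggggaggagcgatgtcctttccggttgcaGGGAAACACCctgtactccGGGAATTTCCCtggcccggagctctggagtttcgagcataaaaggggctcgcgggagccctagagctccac
Cxcl2: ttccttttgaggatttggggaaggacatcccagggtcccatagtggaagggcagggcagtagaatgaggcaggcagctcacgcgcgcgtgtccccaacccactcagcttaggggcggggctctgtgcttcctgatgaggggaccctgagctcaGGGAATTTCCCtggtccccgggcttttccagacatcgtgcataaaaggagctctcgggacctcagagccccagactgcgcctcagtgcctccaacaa
Cxcl10: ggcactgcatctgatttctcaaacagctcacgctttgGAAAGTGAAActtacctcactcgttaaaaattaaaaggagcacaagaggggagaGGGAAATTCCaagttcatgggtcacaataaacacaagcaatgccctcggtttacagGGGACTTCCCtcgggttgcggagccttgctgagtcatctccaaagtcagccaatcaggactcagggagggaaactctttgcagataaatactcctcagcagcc
Cxcl12: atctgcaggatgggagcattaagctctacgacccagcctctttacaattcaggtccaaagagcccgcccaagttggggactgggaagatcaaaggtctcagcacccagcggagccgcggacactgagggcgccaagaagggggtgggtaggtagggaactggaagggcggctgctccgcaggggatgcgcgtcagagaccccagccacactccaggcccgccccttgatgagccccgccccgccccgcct

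The *Cxcl1* window held κB matches at −90 to −81, −71 to −62 and, on the opposite strand and overlapping the last, −70 to −61. *Cxcl2* held overlapping matches at −97 to −88 and −96 to −87, and *Cxcl10* held κB matches at −159 to −150 and −103 to −94 and the interferon-response-like motif at −213 to −204. Neither motif was found in this window of *Cxcl12*. Of all 32851 promoter windows of this length, 5793 (17.6%) held the κB motif and 978 (2.98%) the interferon-response-like motif. Of the 31 member windows with a sequence, 13 and 3 did. The 13 hold repeated windows of *Ccl27a* as well as *Ccl27b*, so windows are not separate members. No sequence was available for *Ccl2*, *Ccl4*, *Ccl5*, *Ccl7*, *Ccl11*, *Ccl24*, *Ccl26*, *Cxcl5*, *Cxcl16* and *Cxcl17*. A match is a string of letters and not a measured binding site. The neighbouring genes lie in runs (mm10): *Cxcl5*, *Cxcl3*, *Cxcl15*, *Cxcl1* and *Cxcl2* within chr5:90759360-90905938, *Cxcl9* and *Cxcl10* within chr5:92321347-92348889, *Ccl2*, *Ccl7*, *Ccl11*, *Ccl12*, *Ccl8* and *Ccl1* within chr11:82035571-82305690, and *Ccl5*, *Ccl9*, *Ccl6*, *Ccl3* and *Ccl4* within chr11:83525778-83664683.

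After the study's cell filter, 36969 of 41741 barcodes remained, 8177 to 10461 for each library with a median of 9118 to 11427 UMIs, and 171 barcodes occurred in 2 libraries. No row carries the name *SYISL*, and *Synpo2*, which the knockout need not change, stood at 10.4, 10.3, 10.9 and 9.03 CPM, so the genotype labels could not be checked from these values. KO2 stood apart from the other libraries by *Xist*, with 131038 UMIs against 0 to 5, so that its fetus or fetuses differed in sex from the rest. Cells were grouped on genes other than the members and named by markers, with 12 classes that held at least 20 cells in every library. They were FAP-like (17482 cells), myogenic-like (6726), chondrocyte-like (3263), glial-like (1838), smooth muscle or pericyte-like (1740), endothelial-like (1336), tenocyte-like (1258), *Cldn1* fibroblast-like (1232), macrophage-like (1044), mast-like (360) and neutrophil-like cells (214), and an unnamed cluster of 476 cells. The neutrophil-like class counted 104, 60, 25 and 25 cells and the unnamed cluster 51, 38, 126 and 261, and neither was tested between genotypes.

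Chemokine UMIs were present in every class, and macrophage-like cells held the most for their size (heat map of mean levels by class). The summed level of all members was 6706, 5872, 6741 and 7628 CPM in macrophage-like cells (6737 ± 717), which were 2.82% of the cells and held 20.8% of the 396228 member UMIs. *Cldn1* fibroblast-like cells followed at 2049, 2168, 2416 and 2416 CPM. In them 4 of 7 genes of a mixed list of perineurial or *Cldn1* fibroblast markers were raised, with *Cldn1*, *Hhip* and *Lepr* among the leading genes. FAP-like cells stood at 832, 1004, 1136 and 1016 CPM. Because FAP-like cells were 47.3% of all cells, they held 48.3% of the member UMIs, the largest share of any class. The lowest sums were those of tenocyte-like (235 ± 56.4 CPM) and myogenic-like cells (310.2 ± 36.4 CPM), the latter 18.2% of cells with 5.48% of the UMIs. The other sums were 1729 ± 478 CPM in neutrophil-like, 1685 ± 851 in mast-like, 900.1 ± 85.6 in smooth muscle or pericyte-like, 899 ± 171 in glial-like, 588 ± 127 in the unnamed cluster, 474 ± 94.8 in endothelial-like and 378 ± 34.1 in chondrocyte-like cells. Of the 36 symbols, 20 reached a mean of 20 CPM in a class, 13 had UMIs but stayed below that level, and *Ccl21b*, *Ccl21c* and *Ccl27b* had no UMI in any kept cell. These last 3 are near-identical copies of *Ccl21a* and *Ccl27a*, so the assignment of reads among them is uncertain. The highest level of 11 members was in macrophage-like cells, of 8 in *Cldn1* fibroblast-like and of 4 in mast-like cells, while FAP-like, endothelial-like and neutrophil-like cells and the unnamed cluster each led for 2, and glial-like and tenocyte-like cells for 1. For 13 of the 20 members that reached 20 CPM, the 4 libraries of the highest class lay above all 4 of the second. The same held for 15 of all 33 members with a UMI, and the share over all genes was not computed.

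**Figure D1:**
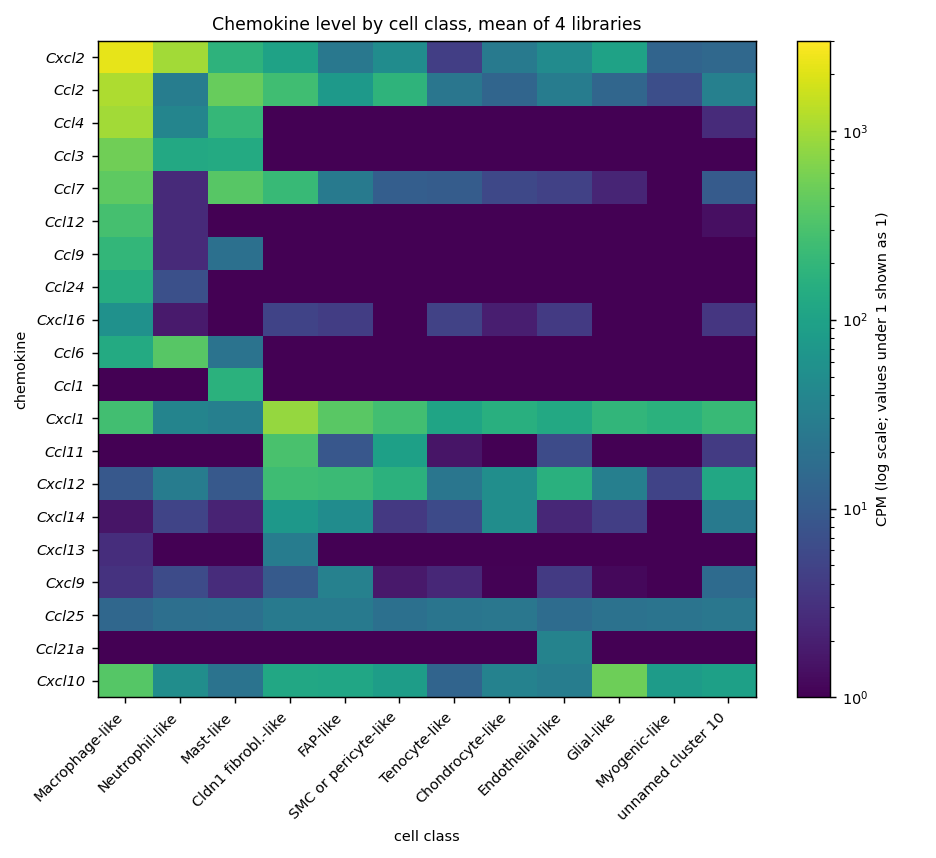
Mean level of the 20 chemokines that reached 20 CPM in a class (rows) in the 12 cell classes (columns), as the mean CPM of 4 libraries on a logarithmic colour scale with values under 1 CPM drawn as 1. Macrophage-like cells led for 9 of the 20 and *Cldn1* fibroblast-like cells for 5, while *Cxcl1* was above 30 CPM in every class.

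Several CC chemokines were found mostly in macrophage-like cells. *Ccl4*, which encodes MIP-1β, was at 1013, 832, 1049.7 and 1032 CPM in macrophage-like cells, which held 91% of its UMIs. After each cell was thinned to 2000 UMIs, 40.5% of macrophage-like cells held a *Ccl4* UMI against 0.166% of FAP-like cells (58% and 0.778% unthinned). *Ccl3*, the neighbouring gene for MIP-1α, was at 581, 477, 503 and 528 CPM with 88.8% of its UMIs in this class. Both KO libraries were above both WT libraries for *Ccl4*, and the genotypes overlapped for *Ccl3*. *Ccl12*, a monocyte attractant, stood at 313, 288, 251 and 277 CPM and had 96.7% of its UMIs in macrophage-like cells. *Ccl24*, an eotaxin, stood at 114, 125, 155 and 188 CPM with 98.4% of its UMIs there, and both KO libraries were above both WT libraries. *Ccl9*, a *Ccr1* ligand, ran the other way at 228, 208, 181 and 176 CPM, with 94.8% of its UMIs in the class and both KO libraries below both WT libraries. *Ccl6*, its neighbour and also a *Ccr1* ligand, was higher in neutrophil-like cells at 398, 322, 522 and 257 CPM than in macrophage-like cells at 150.3, 134, 131 and 112 CPM, although the larger macrophage-like class held 74.2% of its UMIs. Of those 1594 macrophage-like UMIs, 619 lay in a sub-cluster of 119 cells led by genes that include the neutrophil markers *S100a8*, *S100a9* and *Mmp8*. *Cxcl16*, which has a membrane-bound form, was highest in macrophage-like cells (63.4, 41.1, 60.2 and 65.1 CPM), but FAP-like cells held 44.5% of its UMIs.

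The neutrophil-attracting pair *Cxcl1* and *Cxcl2*, next to each other on chromosome 5, had different main sources. *Cxcl2* was at 2200.4, 1670.5, 2168 and 2827 CPM in macrophage-like cells and 783, 1587, 974 and 566 CPM in neutrophil-like cells, and the highest neutrophil-like library lay just under the lowest macrophage-like one. Macrophage-like cells held 66.6% of all *Cxcl2* UMIs, and 54.1% of them had one after thinning (64.5% unthinned), with 52.3% of the UMIs in the 10% of cells with the most. The *Cxcl2* level of FAP-like cells was 13.8, 24.6, 26.3 and 33.6 CPM and that of tenocyte-like cells 4.43 CPM, the lowest of the classes. *Cxcl1* was at 770.1, 759, 947 and 917 CPM in *Cldn1* fibroblast-like cells and 301, 404, 437 and 392 CPM in FAP-like cells, where 62.1% of its 118826 UMIs lay. It was spread over every class, at 269 CPM in macrophage-like, 264 in smooth muscle or pericyte-like, 196 in glial-like, 167 in myogenic-like and 124 in endothelial-like cells. Mast-like cells had the lowest *Cxcl1* level at 31.5 ± 9.43 CPM, 27.0-fold below the highest class. After thinning, *Cxcl1* was detected in 50.1% of *Cldn1* fibroblast-like and 33.2% of FAP-like cells against 3.65% of mast-like cells (unthinned 60.1% of FAP-like and 10.3% of mast-like cells). The part of free RNA in the lower levels was not tested.

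*Ccl2* and *Ccl7*, ligands of *Ccr2* that draw monocytes, were shared by macrophage-like, mast-like and mesenchymal cells. *Ccl2* stood at 964, 1115, 1184 and 1219 CPM in macrophage-like cells and 177, 257, 273 and 307 CPM in *Cldn1* fibroblast-like cells, with no overlap between the classes. FAP-like cells, at 47.2, 77.6, 86.6 and 90.6 CPM, still held 37.3% of the *Ccl2* UMIs, close to the 35% of macrophage-like cells. *Ccl7* stood at 403, 374, 358 and 488 CPM in macrophage-like, 187, 209, 242 and 235 CPM in *Cldn1* fibroblast-like and 16.5, 26, 32.9 and 29.7 CPM in FAP-like cells. In mast-like cells *Ccl2* was at 385, 250.2, 979 and 281 CPM and *Ccl7* at 235, 201, 800.2 and 262 CPM, and for both genes KO1 alone was high while KO2 lay within or near the WT range. Smooth muscle or pericyte-like cells held *Ccl2* at 154, 221, 182 and 179 CPM, and myogenic-like cells had the lowest level at 6.74 CPM. *Ccl11*, eotaxin, which draws eosinophils through *Ccr3*, was led by *Cldn1* fibroblast-like cells at 331, 277, 277 and 323 CPM, with 53.4% of its UMIs, followed by smooth muscle or pericyte-like cells at 79.7, 135, 83.6 and 83.9 CPM. *Ccl1*, a ligand of *Ccr8*, was nearly confined to mast-like cells, with 76, 132, 240 and 216 UMIs (97.5, 134, 239 and 202 CPM) in 12, 19, 23 and 20 cells and 97.1% of its UMIs in the class. Mast-like cells also held *Ccl3* at 70.6, 111, 296 and 64.5 CPM and *Ccl4* at 105, 322, 185 and 222 CPM, where the 10% of cells with the most UMIs of it held 100% of the *Ccl4* UMIs.

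Constitutive chemokines were highest in mesenchymal classes. *Cxcl12* was at 259.7, 231, 259.7 and 247 CPM in *Cldn1* fibroblast-like and 247, 219, 254 and 217 CPM in FAP-like cells, which overlapped, and FAP-like cells held 77.8% of its 57495 UMIs. Endothelial-like cells stood at 217, 127, 133 and 165 CPM, where the 10% of cells with the most UMIs of it held 85.2% of the *Cxcl12* UMIs against 35.1% in FAP-like cells. The level was 52.5 CPM in chondrocyte-like cells and lowest in myogenic-like cells at 4.96 CPM. *Cxcl14* was at 75, 71.3, 62.4 and 75.6 CPM in *Cldn1* fibroblast-like, 54.1, 42.8, 49.9 and 51.9 CPM in FAP-like and 49.9 CPM in chondrocyte-like cells. *Cxcl13*, a B cell attractant, reached 10.1, 70.4, 28.1 and 5.19 CPM in *Cldn1* fibroblast-like cells, but a single cell of each library held 21 of 35, 161 of 229, 65 of 98 and 15 of 18 UMIs. *Ccl25*, known from thymus and gut, was nearly even, from 27.4 CPM in FAP-like to 14.3 CPM in macrophage-like cells, and its gene overlaps *Elavl1* on the other strand.

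Of the interferon-inducible ligands of *Cxcr3*, *Cxcl10* reached a mean of 20 CPM in 11 classes and *Cxcl9* in 1. *Cxcl10* stood at 408, 575, 448 and 621 CPM in glial-like and 348, 327, 353 and 407 CPM in macrophage-like cells, and the lowest glial-like library lay above the highest macrophage-like one by less than 1 CPM. It was at 63.8, 117, 155 and 125 CPM in FAP-like cells, with WT1 lowest, and at 121 CPM in *Cldn1* fibroblast-like, 80.6 in myogenic-like and 13 in tenocyte-like cells. The gene overlaps *Art3* on the opposite strand, which stood at 373 CPM in glial-like and 258 CPM in smooth muscle or pericyte-like cells and at 2.67 to 10.9 CPM in the other classes. *Cxcl9* was at 31.6, 35.7, 39.3 and 26.4 CPM in FAP-like cells, which held 93.1% of its UMIs. The unnamed cluster followed at 16.5 ± 7.96 CPM, and its libraries overlapped those of FAP-like cells. *Ccl21a*, which guides dendritic cells into lymphatic vessels, was at 0, 1.82, 49.2 and 93.9 CPM in endothelial-like cells, where it is taken up with the genotypes. The 13 members below 20 CPM had their highest means between 0.0768 CPM (*Ccl22*, 2 UMIs in all) and 19.0 CPM (*Cxcl3*, a *Cxcr2* ligand, in neutrophil-like cells). Among them were *Cxcl5* at 11.4 CPM in *Cldn1* fibroblast-like cells, *Ccl27a* at 10.2 CPM in the unnamed cluster, *Ccl17* at 5.05 CPM and *Ccl5* at 4.28 CPM in the mast-like class and *Ccl8* at 3.65 CPM in macrophage-like cells. The mast-like class also held 10 lymphoid markers at a sum of 253, 480.0, 163 and 159 CPM, against at most 34.8 CPM in a library of any other class, and their part in these levels was not tested. *Cxcl17*, *Ccl26*, *Ccl19*, *Ccl20*, *Ccl28* and *Cxcl15* stayed below 2 CPM in every class.

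**Figure D2:**
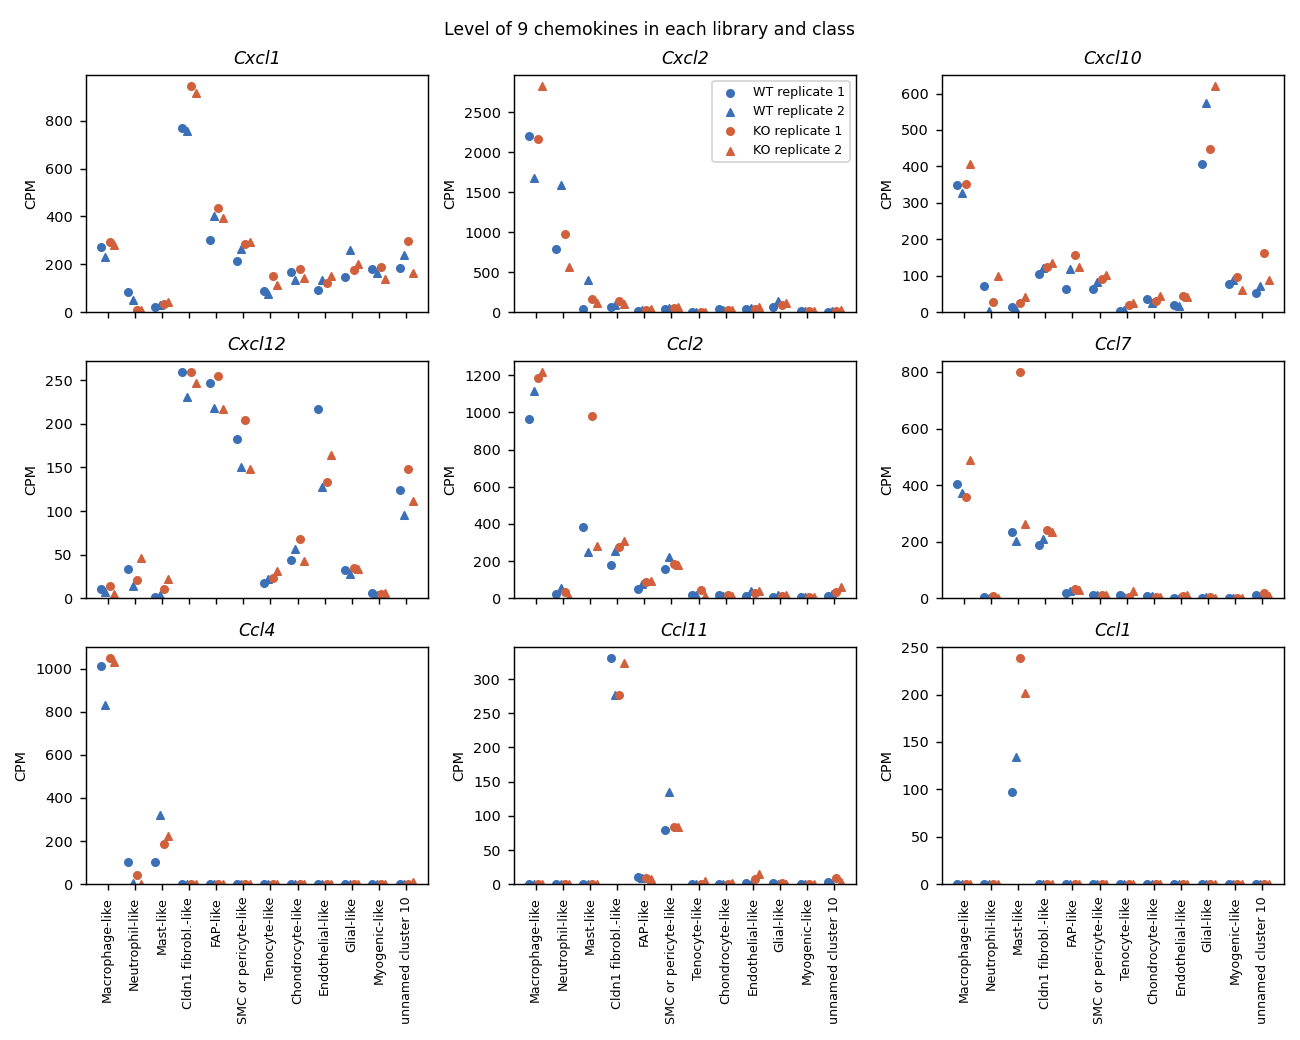
Level of 9 chemokines in each of the 12 classes, in CPM on a linear axis, with 1 point for each of the 4 libraries coloured by genotype. Macrophage-like cells lie above the other classes for *Ccl4*, *Cldn1* fibroblast-like cells for *Ccl11* and mast-like cells for *Ccl1*. The libraries of the 2 genotypes overlap in some classes and lie apart in others.

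To compare the classes, the summed UMIs of each class and library were fitted with the library as a block (edgeR quasi-likelihood, Benjamini-Hochberg adjusted p under 0.05), and each class was set against the mean of the other classes. Other genes of the same cells formed the classes, so these calls describe them and are not an independent test. Of 276 pairs of 23 tested members and 12 classes, 79 were called higher. Macrophage-like cells had 14 of 23 members higher, against 36.3% of all 15254 genes, *Cldn1* fibroblast-like cells 14 (32.7%), FAP-like cells 12 (43.3%) and mast-like cells 10 (27.1%). Neutrophil-like cells had 7 higher (17.7% of all genes), smooth muscle or pericyte-like cells 5 (30.8%), the unnamed cluster 4 (19.8%), and chondrocyte-like (35.4%), endothelial-like (32.3%), glial-like (31%) and tenocyte-like cells (28.7%) 3 each. Myogenic-like cells had 1, *Ccl27a*, against 39.3% of all genes. The log2 differences from the mean of the other classes were 9.69 (SE 0.13) for *Ccl12*, 9.08 (SE 0.13) for *Ccl4* and 5.67 (SE 0.13) for *Cxcl2* in macrophage-like cells. For *Ccl11* in *Cldn1* fibroblast-like cells the difference was 7.73 (SE 0.18), and *Cxcl1* there differed by 2.41 (SE 0.10). *Cxcl9* differed by 3.63 (SE 0.13) and *Cxcl12* by 2.53 (SE 0.08) in FAP-like cells, and *Cxcl10* by 2.91 (SE 0.13) in glial-like and 2.61 (SE 0.14) in macrophage-like cells. The adjusted p of each of these was below 0.05.

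To see how chemokines varied inside the 2 classes with the most member UMIs, FAP-like and macrophage-like cells were clustered again without the members. Macrophage-like cells gave a resident-macrophage-like group of 499 cells (led by genes such as *Hmox1*, *Slc40a1* and *Lyve1*) and a dendritic-like group of 162 (led by *H2-Ab1* and *Cd74*, genes of antigen presentation), beside 4 unnamed groups. The resident-macrophage-like name depended on the setting. Without Scrublet doublets a group of 458 cells led by *Slc40a1* and *Hmox1* was unnamed, and at resolution 0.8 no group took the name. The dendritic-like name was given in both. The highest *Ccl6* level in the class, 853 ± 136 CPM, was in the unnamed group of 119 cells with neutrophil markers, where *Ccl4* stood at 1213 ± 594 CPM. In CPM, the resident-macrophage-like group held *Ccl2* 1408 ± 227, *Ccl7* 538 ± 63, *Ccl12* 393 ± 58 and *Ccl24* 199.6 ± 56.6. The dendritic-like group held less of these, *Ccl2* 481 ± 92.1, *Ccl7* 213 ± 65.2, *Ccl12* 138 ± 113 and *Ccl24* 26.5 ± 11.3. It stood higher than the resident-macrophage-like group for *Ccl6* (220.5 ± 88.3 against 67.2 ± 14 CPM), *Cxcl16* (112 ± 24.1 against 51.4 ± 8.42) and, by the mean, *Ccl4* (1558 ± 428 against 882 ± 207). In KO2 the order of *Ccl4* was turned, at 1009 CPM in the dendritic-like against 1166 CPM in the resident-macrophage-like group. The resident-macrophage-like share of macrophage-like cells was 54.6%, 42.2%, 48.9% and 45.3%, and the dendritic-like share 12.9%, 16.5%, 13.3% and 18.9%. Exact two-sided permutation tests gave p = 1 and p = 0.667, where 0.333 is the smallest p that 4 libraries allow.

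FAP-like cells gave an adventitial-FAP-like group of 5126 cells (led by genes such as *Ly6a*, *Wnt2* and *Pi16*) and unnamed groups, the largest of 8172 cells. In the adventitial-FAP-like group *Cxcl1* stood at 399, 544, 630.3 and 537 CPM and *Cxcl10* at 182 ± 76.6 CPM, against 285 ± 58.4 and 77.9 ± 29.8 CPM in the largest unnamed group. The order was turned for *Cxcl12* (184 ± 9.23 against 278 ± 31.9 CPM), *Cxcl14* (25.1 ± 2.79 against 67.2 ± 8.03) and *Cxcl9* (20.1 ± 6.65 against 43.3 ± 7.45). An unnamed group of 1779 cells with *Sox5* and *Acan* among its leading genes held *Cxcl1* at 546 ± 96.3 CPM, *Cxcl2* at 55.8 ± 18.2 CPM and *Ccl7* at 54.1 ± 22.1 CPM. These groups were formed from other genes of the same cells, and their levels are given without a test.

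Detection of chemokines in the same cell was compared after each cell was thinned to 2000 UMIs, which left out 129 shallower cells. Among FAP-like cells, *Ccl7* was found in 12.4% of cells with a *Ccl2* UMI against 1.97% of those without, *Ccl2* in 11.5% of cells with a *Cxcl1* UMI against 4.15% of those without, and *Cxcl10* in 18.53% of cells with a *Cxcl1* UMI against 7.56% of those without. *Cxcl2* was found in 5.21% of cells with a *Cxcl1* UMI against 1.52% of those without, and *Cxcl9* in 7.67% of cells with a *Cxcl10* UMI against 4.47% of those without. All these had the same direction in 4 of 4 libraries. The constitutive *Cxcl12* (32.1% with and 34.2% without *Cxcl1*) and *Cxcl14* (7.42% and 7.83%) were about as frequent in both. In macrophage-like cells, *Ccl4* was found in 61.3% of cells with a *Ccl3* UMI against 25.8% of those without and *Ccl7* in 44.3% of cells with a *Ccl2* UMI against 13.7% of those without, again in 4 of 4 libraries. *Ccl24* differed least, at 21.5% of cells with and 18.4% without a *Cxcl2* UMI. It was more frequent with *Cxcl2* in KO1 and KO2 and less frequent in WT1 and WT2. Cells of a library share its preparation and classes hold more than 1 state, so these shares are a description.

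**Figure D3:**
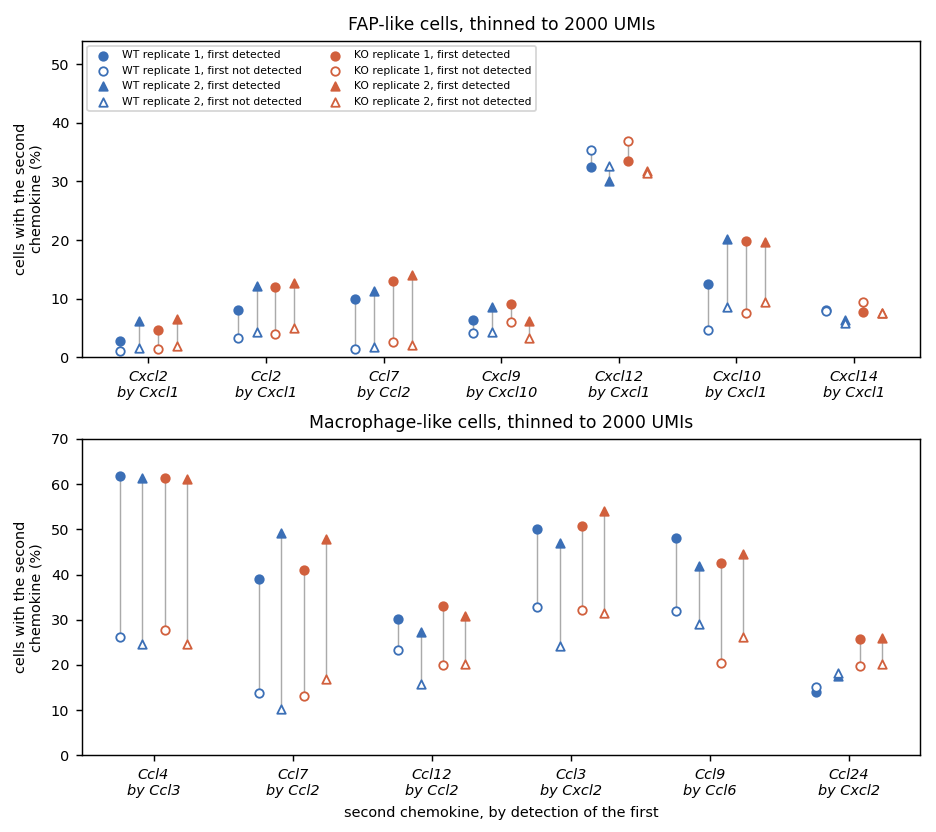
Percent of cells with a UMI of the second chemokine among cells with and without a UMI of the first, for 7 pairs in FAP-like cells and 6 in macrophage-like cells, each cell thinned to 2000 UMIs. *Ccl4* with *Ccl3* in macrophage-like cells (61.3% against 25.8%) is the widest gap, and *Cxcl12* with *Cxcl1* in FAP-like cells shows nearly none.

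Receptors were sought for the same ligands, with 28 genes of receptors, atypical receptors and chemokines under other symbols, of which 10 reached 20 CPM in a class. Neutrophil-like cells held *Cxcr2*, the receptor of *Cxcl1* and *Cxcl2*, at 267 ± 75.9 CPM and *Ccr1* at 315 ± 103 CPM. Macrophage-like cells held *Pf4*, a CXC chemokine named for platelets, at 5359.6 ± 330.1 CPM, *Cx3cr1* at 376 ± 43.6, *Ccr1* at 109 ± 11.6, *Ccrl2* at 74.8 ± 6.94, *Ccr2* at 59.5 ± 5.74 and *Ppbp* at 26 ± 9.37 CPM. *Cxcr4*, the receptor of *Cxcl12*, was at 181 ± 40 CPM in neutrophil-like, 48.7 ± 3.66 in macrophage-like, 31.2 ± 15.1 in mast-like and 24.9 ± 7.94 in endothelial-like cells. *Ackr3*, which scavenges *Cxcl12*, was at 63.1, 61.7, 52.8 and 51.9 CPM in FAP-like cells, and *Ccr8*, the receptor of *Ccl1*, at 23.1 ± 4.14 CPM in mast-like cells. Between the genotypes, 0 of 67 pairs of such a gene and a class were called (edgeR), with 9 at an unadjusted p under 0.05. At that p, 2682 of 127713 pairs of all genes and classes were higher in KO and 2467 lower.

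To examine the loss of *SYISL*, UMIs summed by library were compared between KO and WT in the 10 classes with at least 50 cells in every library (edgeR quasi-likelihood, adjusted over all genes of the class). Over 124 pairs of 27 members and 10 classes, 2 passed: *Ccl21a* in endothelial-like and *Cxcl10* in tenocyte-like cells, both higher in KO. At an unadjusted p under 0.05, 29 pairs were higher in KO (23.4%, against 2.10% of 127713 pairs of all genes) and 3 lower, and 64.5% of member pairs had a positive log2 difference against 49.8% of all. The pairs share the same 4 libraries and are not independent. Fits that left out a library had 1 library in an arm that is assumed to vary like the other genotype, so their calls are not counted. Removing the cells that Scrublet marked as doublets gave 0 calls. All genes called in a class made up 0.017% in endothelial-like and 0.0173% in tenocyte-like cells, where 1 member each was called of 11 and 10 tested. In endothelial-like cells 4 of 11 members had an unadjusted p under 0.05 (edgeR), against 3.56% of all genes. The genes called made up 0.0122% in mast-like cells and 0.151% in smooth muscle or pericyte-like cells, where edgeR called 0 of 10 members each. In both, 3 members had an unadjusted p under 0.05, with no share of all genes beside them, and DESeq2 called 0. In the other classes edgeR called 0% of all genes. Members at an unadjusted p under 0.05 (edgeR) were 6 of 22 in FAP-like cells (2.54% of all genes) and 4 of 16 in macrophage-like cells (4.36%). They were 5 of 15 in *Cldn1* fibroblast-like cells (5.94%) and 2 of 10 in chondrocyte-like cells (1.51%). In glial-like cells they were 1 of 10 (3.56%), and in myogenic-like cells 1 of 10, with no share of all genes beside it. In these classes DESeq2 called 1 member in *Cldn1* fibroblast-like cells (*Cxcl1*) and 0 in the rest. In *Cldn1* fibroblast-like cells DESeq2 gave an adjusted p to 1474 of 21243 genes, with 15 called higher and 0 lower in KO. In FAP-like cells it gave an adjusted p to 11212 genes, with 6 called higher and 2 lower in KO. Over all kept cells, 0 of 29 members (0% of all genes) were called by edgeR. There 8 members had an unadjusted p under 0.05 (edgeR) and DESeq2 called 1, *Ccl7*, both without a share of all genes.

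**Figure D4:**
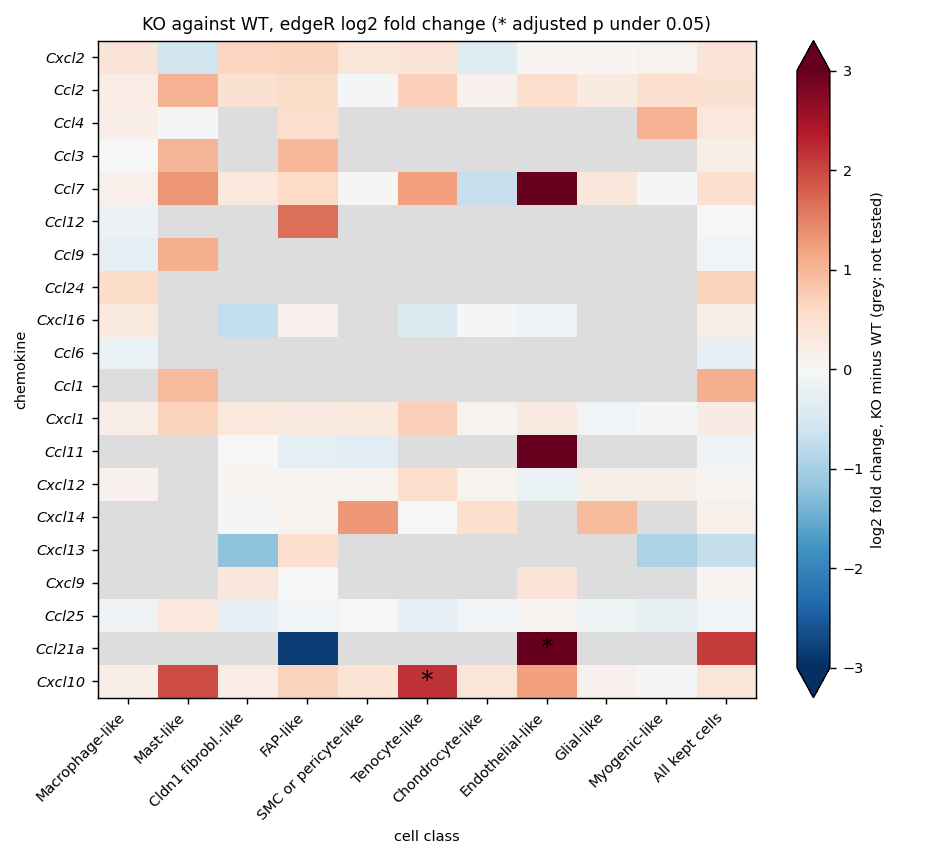
Log2 difference KO minus WT of the 20 chemokines (rows) in 10 classes and over all kept cells (columns), with colours limited to ±3, grey where a gene was not tested and an asterisk at an adjusted p under 0.05. Asterisks mark *Ccl21a* in endothelial-like and *Cxcl10* in tenocyte-like cells.

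In FAP-like cells *Cxcl1*, *Cxcl2*, *Cxcl10*, *Ccl2* and *Ccl7* were lowest in WT1, whereas *Cxcl9* was lowest in KO2. The KO minus WT log2 differences were 0.68 (SE 0.26) for *Cxcl2*, 0.66 (SE 0.27) for *Cxcl10*, 0.54 (SE 0.21) for *Ccl2* and 0.59 (SE 0.20) for *Ccl7*, with an adjusted p of 1 each (edgeR). Without WT1 these log2 differences were 0.33, 0.30, 0.24 and 0.31. A list of NF-κB response genes was also lowest in WT1, with a sum of 2074, 2470.0, 2569 and 2589.6 CPM in FAP-like cells, 19 of 19 tested genes at a positive log2 difference, 7 at an unadjusted p under 0.05 and 0 called (edgeR). Of a list of dissociation-stress genes, 21 of 24 were positive in FAP-like and 22 of 24 in *Cldn1* fibroblast-like cells, where its sum was 12907, 12822, 15122 and 15789 CPM. Their part in the chemokine levels was not tested. In *Cldn1* fibroblast-like cells *Cxcl1* differed by log2 0.32, SE 0.08, adjusted p = 0.43, and both KO libraries were above both WT libraries. In macrophage-like cells the interferon list stood at 1303, 907, 1006 and 676 CPM, with 1 of 16 genes positive, 6 at an unadjusted p under 0.05 and 0 called, and *Cxcl2* differed by log2 0.39, SE 0.16, adjusted p = 0.997 and *Ccl24* by log2 0.54, SE 0.14, adjusted p = 0.936. Over all kept cells *Ccl7* stood at 30.4, 34.1, 46.6 and 41.7 CPM and differed by log2 0.50, SE 0.08, adjusted p = 0.946.

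*Ccl21a* in endothelial-like cells rested on few cells. It counted 0, 6, 210 and 339 UMIs, and both KO libraries were above both WT libraries (log2 6.28, SE 0.56, adjusted p = 0.00207, edgeR). A *Ccl21a* UMI was found in 0 of 307 (which allows a share of up to 0.977% of the kept cells, counting error only), 1 of 319, 3 of 383 and 5 of 327 cells. Removing the cells that Scrublet marked as doublets took KO1 from 210 to 18 UMIs, so its cells with 93 and 99 UMIs were marked, and the log2 difference was then 5.70 and not called (adjusted p = 0.593, edgeR). Of the 7 cells with at least 3 UMIs, 7 held the lymphatic endothelial markers *Prox1*, *Lyve1* and *Mmrn1*, found in 7.22%, 1.13% and 1.43% of the other endothelial-like cells. The sum of 8 lymphatic markers over endothelial-like cells was 57.6, 73.6, 82.3 and 137 CPM, with 4 of 8 above WT in both KO libraries. WT2 had a further cell with 114 *Ccl21a* UMIs and all 8 lymphatic markers that was grouped with FAP-like cells, with 41 UMIs of endothelial and 391 of FAP markers, and this one was not marked by Scrublet. With that cell WT2 would stand at 120 UMIs and 36.1 CPM, between WT1 and KO1. When cells were clustered after centring each library, the cell fell among endothelial-like cells and the log2 difference was 2.00, which was not called (adjusted p = 0.999, edgeR). DESeq2 gave an adjusted p of 0.822, and with the looser cell filter the UMIs were 290, 81, 288 and 1218 and the log2 difference 1.93, not called (adjusted p = 0.995, edgeR). Over all kept cells *Ccl21a* stood at 0.0533, 1.31, 2.29 and 3.36 CPM and was not called (log2 2.09, SE 0.97, adjusted p = 0.946).

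*Cxcl10* in endothelial-like cells counted 69, 52, 183 and 145 UMIs in 29, 29, 41 and 45 cells, or 19.9, 15.8, 42.9 and 40.1 CPM, and missed the threshold (log2 1.23, SE 0.17, adjusted p = 0.0509). *Ccl11* counted 4, 1, 33 and 56 UMIs (log2 3.91, SE 0.60, adjusted p = 0.0986), and 26 of the 33 in KO1 came from 1 cell. DESeq2 called it (adjusted p = 0.0312), and over 15 settings *Ccl11* was called in 5, *Ccl7* in 4 and *Cxcl10* in 6. *Ccl7* counted 1, 4, 29 and 37 UMIs (log2 3.46, SE 0.57, adjusted p = 0.115), with 22 of the 29 in KO1 from 1 cell. For *Cxcl10*, *Ccl11* and *Ccl7* both KO libraries were above both WT libraries. A sub-cluster of 162 endothelial-like cells (27, 37, 45 and 53) was led by genes such as *Rgs5*, *Col1a2* and *Dcn*, and without it, an alternative chosen after the data were seen, the log2 difference of *Cxcl10* was 1.72 (adjusted p = 0.0357, edgeR) and that of *Ccl21a* 6.12, with the same adjusted p. Some markers of other cells moved with them. The sum of 14 FAP markers in endothelial-like cells was 1761, 1246, 1979 and 2399 CPM (8 of 14 above and 1 below WT without overlap, none at 0). That of 14 myogenic markers was 55.6, 42.7, 131 and 179 CPM (10 of 14 above), and that of 7 erythroid markers 307, 279, 807 and 4696 CPM (4 of 7 above). Chondrocyte markers ran the other way at 179, 167, 28.1 and 127 CPM (6 of 10 below and 0 above). Of the neutrophil markers 4 of 10 were below and 0 above. No share of all genes stands beside these counts. Macrophage markers stayed between 9.22 and 10.6 CPM, with *Ms4a7* at 0. The interferon list stood at 1404, 1016, 1054 and 789.9 CPM, with 3 of 16 genes at a positive log2 difference, 6 at an unadjusted p under 0.05 and 0 called (edgeR). The part of these markers in the chemokine differences was not tested.

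**Figure D5:**
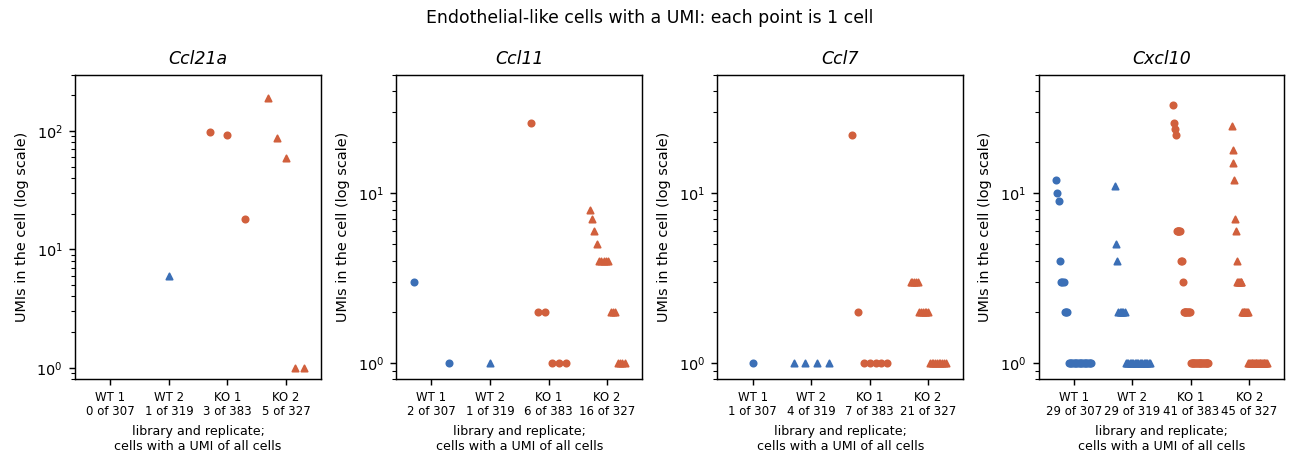
UMIs of *Ccl21a*, *Ccl11*, *Ccl7* and *Cxcl10* in each endothelial-like cell with at least 1 (logarithmic axis), by library. *Ccl21a* is carried by 0, 1, 3 and 5 cells, and most of the *Ccl11* and *Ccl7* UMIs of KO1 come from 1 cell each, while *Cxcl10* is spread over 29 to 45 cells in a library.

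*Cxcl10* in tenocyte-like cells counted 12, 21, 56 and 68 UMIs, 3.26, 6.44, 18.7 and 23.6 CPM, in 8, 14, 18 and 25 cells (log2 2.17, SE 0.30, adjusted p = 0.0298). Both KO libraries were above both WT libraries, and a single cell held 42.9% of the UMIs in KO1 and 36.8% in KO2. Without the reads of the highest cell in each library, the levels were 2.44, 5.22, 10.7 and 14.9 CPM, in the same order. The adjusted p was 0.0985 by DESeq2 and 0.109 without Scrublet doublets, and under other cell groupings the log2 difference was 0.92 to 1.23 and was not called (edgeR). The sum of macrophage markers there was 10, 9.51, 9.68 and 13.9 CPM and that of FAP markers 26934, 24950.1, 27149 and 25269 CPM. In mast-like cells, *Ccl1* differed by log2 0.96, SE 0.20, adjusted p = 0.303, with both KO libraries above both WT libraries, and *Cxcl10* by log2 1.95, SE 0.49, adjusted p = 0.431. FAP markers in mast-like cells summed to 833, 1649, 2775 and 2302 CPM, 11 of 14 above and 1 below WT without overlap, and their part was not tested.

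Whether the KO differences of endothelial-like cells differed from those of FAP-like cells was tested in 1 fit with the library as a block. Of 21 members, 2 were called against 0.0454% of all genes. The difference between the KO differences was 9.11 on the log2 scale for *Ccl21a* (SE 0.51, adjusted p = 2.43e-07, edgeR), where the FAP-like UMIs were 1, 118, 6 and 11 and 114 of the 118 in WT2 came from the cell described above. For *Ccl11* it was 4.24 (SE 0.61, adjusted p = 0.018, edgeR), and for *Ccl7* 2.92 (adjusted p = 0.0965, edgeR), which did not pass, and without the mixed sub-clusters the *Ccl11* value was 1.71 (adjusted p = 1, edgeR). Without WT2 neither difference of *Ccl21a* nor *Ccl11* was called, at 11.19 and 3.76 (adjusted p = 1 and 0.16, edgeR). Between macrophage-like and FAP-like cells edgeR called 0 of 27 members and 0% of all genes. An unadjusted p under 0.05 (edgeR) was reached by 5 members, with no share of all genes beside them.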

How the data were processed

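The 10x feature tables and matrices hold UMI counts per gene and cell, which the authors deposited unnormalised for 4 libraries after alignment to mm10. The members, gene lists and markers were chosen with earlier results of these data known. The study's own limits were applied to each barcode, namely 1000 to 6000 detected genes, 1000 to 25000 molecules and less than 8% mitochondrial. Cells were clustered in scanpy 1.11.5 on 3000 variable genes without the members (30 principal components, Leiden resolution 0.3). Clusters were named where at least 3 fixed markers were raised. The FAP-like name was instead given where fewer than 3 markers of every other list were raised. Enough of 14 FAP markers also had to reach a set part of their highest cluster mean, and 12, 12 and 13 did in the clusters so named. The names are rebuilt and not the study's annotation. Scrublet marked 798 kept cells (2.16%), which were removed only in an alternative. UMI counts of each class were added up within a library, and the sums went into edgeR 4.0.16 (R 4.3.3, TMM, filterByExpr, Benjamini-Hochberg over all genes), where SE is the log2 difference divided by the root of F, and DESeq2 1.42.0 was an alternative. Members were named where a class mean reached 20 CPM or a KO against WT test was passed. On simulated counts for the FAP-like comparison (17952 genes), 94.0% of genes changed by 2 on the log2 scale and 68.4% of those changed by 1 were recovered. The shares were 89.7% and 55.1% for macrophage-like cells (11090 genes) and 94.8% and 69.1% for endothelial-like cells (11569 genes). False calls numbered 14 in the FAP-like simulation and 9 in each of the others. Library depth was 1.10e+08 to 1.26e+08 UMIs. For gene positions, 99.6% of feature IDs were found in GENCODE vM21. Intervals and limits cover counting error only.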

Additional observations from a re-analysis of the deposited data

Results flagged for a closer look

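The KO difference of *Ccl21a* stood apart between cell classes: its log2 value in endothelial-like cells exceeded that in FAP-like cells by 9.11 (edgeR, adjusted p = 2.43e-07). The FAP-like value includes a WT2 cell with 114 *Ccl21a* UMIs and lymphatic markers, and without WT2 the difference was 11.19 and not called (adjusted p = 1). For *Ccl11* the same difference was 4.24 (edgeR, adjusted p = 0.018), and 26 of the 33 endothelial-like UMIs in KO1 lay in 1 cell.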

How the results depend on the processing

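Against 2 members called between KO and WT within a class, there were 16 with no gene filter, 9 with the replicate number as a block, 1 each at clustering resolution 1 and with the members kept in clustering, 0 each with Scrublet doublets removed, with a looser cell filter and with expression centred within libraries, and 7 to 13 when 1 library was left out. The replicate block is only a shared number: same-numbered libraries correlated at 0.019 to 0.206 in their deviations over the classes and all kept cells, with 2 pairs. Over all kept cells DESeq2 called 1 member against 0. Members called higher in a class, 79, stayed between 74 and 98. For the difference between endothelial-like and FAP-like cells, calls were 2, against 1 with Scrublet doublets removed, 1 without the mixed sub-clusters (chosen after seeing the data) and 0 to 5 with 1 library left out, 5 without WT1 and 0 without WT2. For macrophage-like against FAP-like cells they were 0 to 1 when 1 library was left out. The KO minus WT share moved from −7.54 to 4.88 percentage points (resident-macrophage-like) and from −1.35 to 4.21 (dendritic-like). The cause of these changes was not tested.

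Uncalled log2 differences that changed sign are given next. With the looser filter they were −0.0480 for *Cxcl12*, 0.30 for *Cxcl14* and −0.0809 for *Ccl11* in *Cldn1* fibroblast-like cells, and 0.12 for *Ccl3* and 0.0919 for *Ccl12* in macrophage-like cells. At resolution 1 they were −0.0192 for *Cxcl12* and 0.00285 for *Cxcl14* in *Cldn1* fibroblast-like cells and −0.0208 for *Cxcl9* in FAP-like cells. Centring gave −0.0211 for *Ccl11* in *Cldn1* fibroblast-like and −0.0668 for *Cxcl9* in FAP-like cells, and the replicate block −0.0239 for the latter. For *Ccl3* in macrophage-like cells, keeping the members gave 0.0642 and leaving out the mixed sub-clusters 0.0264. With 1 library left out, the ranges in *Cldn1* fibroblast-like cells were −0.0131 to 0.19 (*Cxcl12*), −0.19 to 0.10 (*Cxcl14*), −0.12 to 0.18 (*Ccl11*) and −2.87 to 0.74 (*Cxcl13*). They were −0.15 to 0.14 for *Ccl3* and −0.12 to 0.37 for *Ccl7* in macrophage-like, −0.32 to 0.26 for *Cxcl9* and −0.0739 to 0.16 for *Cxcl12* in FAP-like, −0.13 to 0.40 for *Cxcl10* in glial-like and −0.17 to 1.69 for *Ccl2* in mast-like cells. Of the single-gene KO against WT values under an alternative, 413 kept direction and side of the threshold, 29 changed sign, 38 passed the threshold newly and 10 no longer passed it. A lymphatic group was not found at resolution 0.3, so its alternatives were not run beyond resolution 0.8, and the class fits already hold the library as a block.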

Other observations

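Over the 12 class means, with 9718 genes compared, the genes whose levels were most like those of *Cxcl12* were *Nynrin* (Pearson r = 0.93), *Ldb2* (0.92) and *Sulf1* (0.92). Those most like *Cxcl10* were *Umad1* (0.93), *Zhx1* (0.86) and *Ldah* (0.86), and those most like *Cxcl1* were *Paf1* (0.91), *Abhd11* (0.91) and *Cd302* (0.90). The points are classes of the same 4 libraries, and classes share depth and preparation, so the values are a description.

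At a finer clustering of endothelial-like cells (resolution 0.8), a group of 64 cells in which 4 of 8 lymphatic markers were raised made up 5.21%, 4.70%, 3.13% and 6.42% of the endothelial-like cells of WT1, WT2, KO1 and KO2. Cells in which at least 4 of the markers were detected numbered 0, 1, 3 and 3, so most of the 64 cells did not show that many.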
